A study of Mus musculus with 6 samples.

Results

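The 33 genes described here are mouse complement components, regulators and receptors, chosen because their symbol equalled that of a row in a table of 60832 genes, and all 33 were found there. They were followed in RNA-seq libraries of liver sinusoidal endothelial cells (LSECs, the fenestrated endothelium that lines the liver's smallest vessels). The cells came from colorectal cancer liver metastasis xenografts grown from the human colorectal cancer line HCT116, and the comparison was between bevacizumab-resistant xenografts (3 libraries) and bevacizumab-sensitive xenografts (3 libraries). Bevacizumab is an antibody against human vascular endothelial growth factor A that blocks the growth of new vessels. By the study's methods the hosts of both groups were male BALB/c-Nu mice, which lack a thymus and mature T cells, the tumor cells were placed in the liver, and the resistant state was obtained by repeated intraperitoneal bevacizumab given to tumors that were sensitive at first. The mice were a few weeks old when obtained. Their age at sampling is not given in the sources used here, nor is the treatment of the particular mice that gave the sensitive libraries. The same methods describe capture of the LSECs on beads against CD146 and report a high purity of CD146-positive cells by flow cytometry. The labels add that the cells of all 6 libraries were cultured for 24 h. The titles number the libraries of each group but do not say that each came from its own mouse, so p-values measure the spread between these libraries only.

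Complement is a cascade of plasma proteins that tags microbes and damaged cells. Its recognition molecules start it through C1 or the lectins, its convertases split C3 and C5, and its terminal proteins assemble into a pore, while soluble and membrane-bound regulators protect host cells and the released fragments C3a and C5a call in leukocytes through their receptors. Hepatocytes make most of the plasma pool, whereas C1q, properdin and the fragment receptors are made mainly by macrophages and other myeloid cells, including Kupffer cells, the resident macrophages of the liver sinusoid. The 33 genes were therefore read in 3 lists by main source, with 7 macrophage-made genes, 11 hepatocyte-made genes and 15 genes made by several cell types.

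The libraries held between 17599326 and 20726684 counts. The markers of macrophages and Kupffer cells went against the label of the cells, since the summed level of the 12 such genes was between 18328 and 32151 CPM (counts brought to a common library size by the trimmed mean of M values, TMM), while that of 9 LSEC markers was between 73.8 and 439.7 CPM and that of 10 pan-endothelial markers between 49.5 and 442.8 CPM. No marker of either endothelial list was at 0 in all 6 libraries. Hepatocyte markers (11 genes) summed to between 37.2 and 119.7 CPM in the sensitive libraries and between 71.5 and 234.9 CPM in the resistant ones. Neutrophil markers (8 genes) summed to between 506 and 7545 CPM in the sensitive libraries and between 249 and 1835 CPM in the resistant ones. Stellate cell and fibroblast markers (10 genes) summed to between 83.0 and 303.6 CPM over the 6 libraries. Sensitive replicate 2 stood apart from the others of its group, with a chi-square per gene of 163 and 208 against them, where the other pair had 57.0. Resistant replicate 1 also differed more from the others of its group, at 76.7 and 64.8, where the other pair had 33.6. In bulk RNA of this kind, fewer cells of a type and less RNA per cell cannot be told apart.

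The complement genes were dominated by the 3 chains of C1q, the molecule that binds antibody and apoptotic cells and opens the classical pathway. Compared per length, in FPKM (the authors' values, scaled by library size and gene length), the median level over the 6 libraries was 2227 FPKM for C1qa, 1665 FPKM for C1qb and 867 FPKM for C1qc. Among all genes of the table, C1qa ranked between 9 and 18 by FPKM in the single libraries, C1qb between 13 and 28, and C1qc between 31 and 48. Together the chains took 0.698% ± 0.218 of all counts in the sensitive libraries and 0.528% ± 0.124 in the resistant libraries (SD, n = 3 each). They made up 72.3% ± 6.81 of all counts of the 33 genes in the sensitive group and 72.0% ± 2.25 in the resistant group.

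Cfp, which encodes properdin, the stabiliser of the alternative pathway convertase, was next at a median of 379 FPKM and ranked between 71 and 133. Its range of 276 to 615 FPKM lay below that of C1qc (699 to 1170 FPKM) and above that of C5ar1 (53.3 to 169 FPKM). These were the only neighbours in the order of the 33 genes whose ranges over the 6 libraries did not meet. C5ar1, the main receptor of C5a, had a median of 95.2 FPKM and C3ar1, the receptor of C3a, one of 70.9 FPKM. C3, the central component split by every pathway, had a median of 52.6 FPKM, followed by C4b (48.4 FPKM), Clu (43.5 FPKM) and C6 (26.4 FPKM).

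The remaining genes were at median levels under 10 FPKM. Of these, C1ra, Cd55, Cr1l, C2, Serping1, C5ar2, C8g, Cd59a and Masp1 lay between 9.29 and 1.22 FPKM, in that order. Cfb, C1s1, Masp2, Cfi, Cd46, C9 and Hc followed between 0.764 and 0.130 FPKM. The lowest were C4bp, Mbl2, C8b, Mbl1, Cfd, C8a and C7, between 0.0997 and 0.0181 FPKM. In every library 4 genes were at 100 FPKM or more (C1qa, C1qb, C1qc and Cfp), 8 were at 10 or more, 17 were at 1 or more and 10 were under 1.

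**Figure D1:**
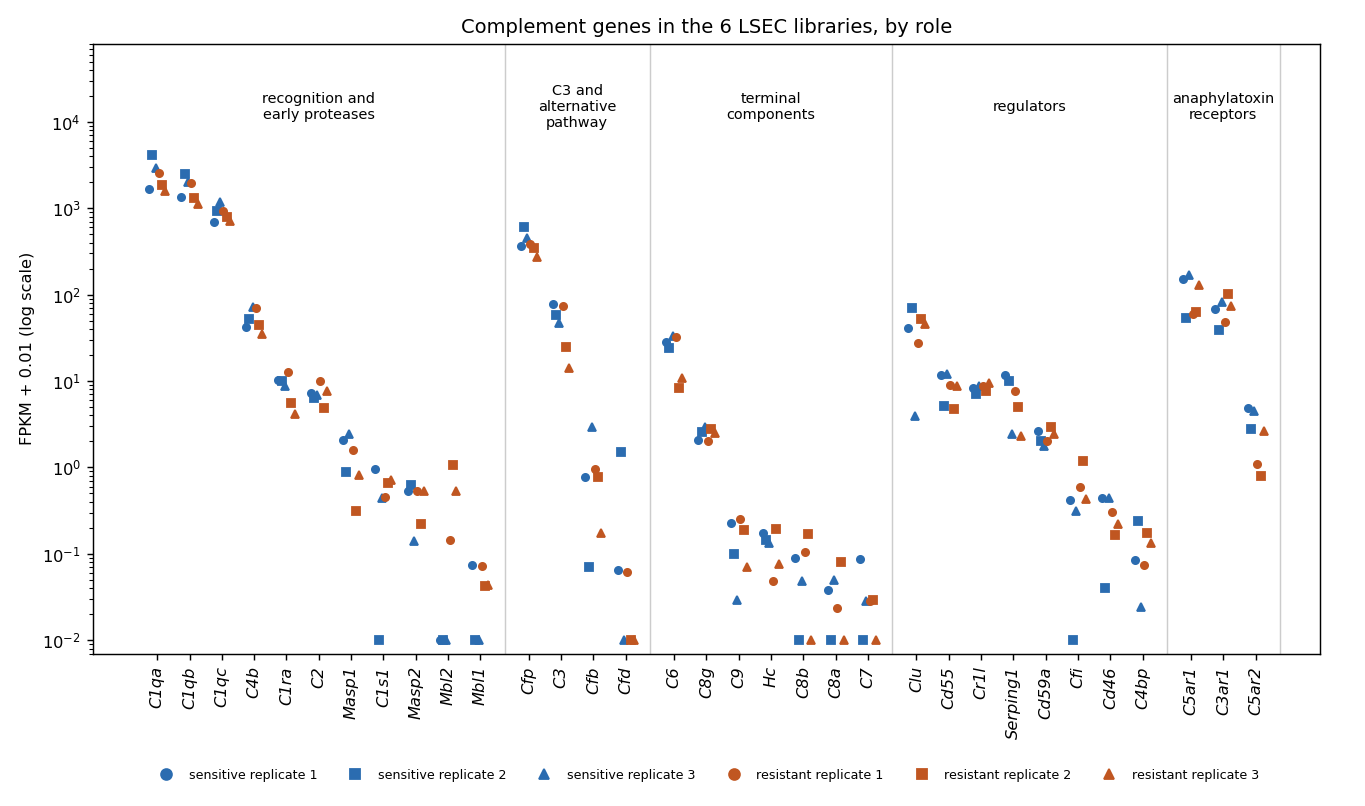
Level of each of the 33 complement genes in the 6 libraries, as FPKM plus 0.01 on a log axis, with genes grouped by role, squares, circles and triangles for the replicates, blue for sensitive and orange for resistant. The C1q chains and Cfp stand above all other genes in every library, and points on the bottom line are libraries listed at 0.

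The contrast by source was large in every library. Its size depends on how the lists were drawn, which was done with earlier results of these data known. C3 and C4b, for example, were read among the genes made by several cell types. The median level of the 7 macrophage-made genes was 371, 615 and 452 FPKM in sensitive libraries 1, 2 and 3, and 387, 352 and 276 FPKM in resistant libraries 1, 2 and 3. That of the 11 hepatocyte-made genes was 0.163, 0.0889 and 0.0401 FPKM in the sensitive libraries and 0.133, 0.186 and 0.124 FPKM in the resistant ones. The ratio of the medians was lowest in resistant replicate 2, at 1894, and highest in sensitive replicate 3, at 11252. In every library the macrophage-made median was the value of Cfp. The hepatocyte-made median was that of a gene with few counts, such as Hc with 23 in resistant replicate 2 and C8a with 3 in sensitive replicate 3. The spread of the ratio between libraries is uncertain for that reason. Without the most abundant gene of each list the lowest ratio was 1244.

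C6, a subunit of the membrane attack complex, was the exception among the hepatocyte-made genes. It ranged from 8.36 to 33.5 FPKM, while the next of that list, C8g, the small lipocalin-like chain of C8, ranged from 2.04 to 2.97 FPKM. C6 held most of the list's counts, since the hepatocyte-made genes summed to between 42.5 and 126.6 CPM with it and to between 6.75 and 12.3 CPM without it. Mouse Kupffer cells are known to transcribe C6, so its place in the hepatocyte-made list is a convention of that list. Its neighbour on the chromosome, C7, which joins C6 in the same complex, had at most 4 counts in any library.

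The genes lay on 13 chromosomes, placed on GRCm38 with the GENCODE M21 annotation. The 3 C1q chains were side by side on chromosome 4, with C1qb at chr4:136880129-136886187, C1qc at chr4:136889804-136893065 and C1qa at chr4:136895917-136898803, all on the minus strand and with 3616 and 2851 bases between them. Also on chromosome 4, C8b (chr4:104766317-104804548) and C8a (chr4:104815679-104876398) lay 11130 bases apart, and they were near 0 in the same libraries in which C1q was abundant. C6 (chr15:4727175-4814967) and C7 (chr15:4988762-5063740) lay 173794 bases apart on chromosome 15. C5ar2 (chr7:16234585-16244154) and C5ar1 (chr7:16246743-16259540) lay 2588 bases apart on chromosome 7.

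Promoter sequence is shown for C1qb and C1qc as the most abundant members with an entry, for C6 as the exception of its list, and for the neighbours C8a and C8b as hepatocyte-made genes near 0. The sequences are from RefSeq on GRCm38.p6, which held a promoter for 25 of the 33 genes, and each run is the part of the 250 bases before the RefSeq start that lies upstream of annotated exons, on the gene's strand from 5′ to 3′. Capitals mark matches on either strand to GAGGAA (the core of the box bound by PU.1, a myeloid factor, TTCCTC on the other strand), TGCTGA (the core of MAF recognition, TCAGCA on the other strand) or GTTAAT (a half-site of HNF1, a hepatocyte factor, ATTAAC on the other strand).
C1qb (chr4:136886201-136886450, minus strand): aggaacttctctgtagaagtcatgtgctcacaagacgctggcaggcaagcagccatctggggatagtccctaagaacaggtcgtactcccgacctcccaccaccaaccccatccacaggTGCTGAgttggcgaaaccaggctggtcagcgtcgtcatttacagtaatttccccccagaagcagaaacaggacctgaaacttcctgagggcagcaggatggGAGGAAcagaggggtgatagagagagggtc
C1qc (chr4:136893066-136893164, minus strand): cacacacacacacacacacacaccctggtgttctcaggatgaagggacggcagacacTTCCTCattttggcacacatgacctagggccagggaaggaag
C6 (chr15:4726960-4727174, plus strand): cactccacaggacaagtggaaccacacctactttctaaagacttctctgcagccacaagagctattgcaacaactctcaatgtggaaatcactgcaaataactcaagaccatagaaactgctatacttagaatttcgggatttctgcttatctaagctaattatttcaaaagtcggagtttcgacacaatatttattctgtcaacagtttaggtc
C8a (chr4:104876399-104876648, minus strand): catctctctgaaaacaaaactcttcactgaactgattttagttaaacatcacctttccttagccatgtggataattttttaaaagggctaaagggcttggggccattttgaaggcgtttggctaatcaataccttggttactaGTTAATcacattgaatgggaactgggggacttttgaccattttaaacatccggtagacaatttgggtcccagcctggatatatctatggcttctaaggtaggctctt
C8b (chr4:104766067-104766316, plus strand): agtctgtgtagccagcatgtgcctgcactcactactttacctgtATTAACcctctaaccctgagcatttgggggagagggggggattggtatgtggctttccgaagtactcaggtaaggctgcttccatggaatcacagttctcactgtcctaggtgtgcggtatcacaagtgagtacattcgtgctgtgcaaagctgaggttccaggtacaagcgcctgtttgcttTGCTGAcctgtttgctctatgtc

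GAGGAA was in the 250 bases before the start of C1qb and C1qc, that is in 2 of the 6 macrophage-made genes with a sequence, in 0 of 10 hepatocyte-made genes and in 1 of 9 genes made by several cell types (Cd59a), against 23.3% of 32851 mouse promoters of the same length. GTTAAT was in 1 of the 6 macrophage-made genes (Cfp), in 4 of the 10 hepatocyte-made genes (Hc, C8a, C8b and C4bp) and in 2 of 9 of the rest (C1ra and C7), against 6.43% of promoters. Matches were counted over the whole 250 bases, which in some genes include annotated exons. The C1ra match lay within an annotated exon, since only 34 bases of its window lie upstream of them. TGCTGA was in 3 of 6 (C1qb, C3ar1 and C5ar1), 2 of 10 (Mbl1 and C8b) and 4 of 9 (C3, C7, Cd55 and Cd46), against 16.1%. None of the 3 motifs was found in the C6 window. No match to one motif overlapped a match to another in these genes, and a match describes the sequence only. C1qa, Masp1, C2, C4b, Cfb, Cfi, Serping1 and Clu had no entry.

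The comparison of resistant with sensitive xenografts describes how the captured cells differed between the groups. Loss of response and the repeated bevacizumab that produced it cannot be told apart here, since the treatment of the sensitive mice is not given. No complement gene differed at an adjusted p under 0.05 (quasi-likelihood test of edgeR, Benjamini-Hochberg adjustment over the 15474 genes tested), and neither did any other gene, so that the background was 0% and the smallest adjusted p was 0.940. Of the 33 genes 26 had enough counts to be tested, and 7 (Mbl1, Mbl2, Cfd, C7, C8a, C8b and C9) did not. Among the 26, 18 had a lower and 8 a higher fitted level in the resistant group, or 69.2% lower against 49.2% of all genes tested. The median log2 fold change was −0.44, against 0.0078 over all genes tested. Leaving out single libraries moved it between −0.46 and −0.22, nearest to 0 without sensitive replicate 2.

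At an unadjusted p under 0.05, 1 of the 26 was lower (C5ar2), where 2.54% of all genes tested were, and 0 were higher, where 0.536% were. The libraries did not overlap in 1 gene that was lower in the resistant group (C5ar2), with a background of 4.38%, and in 1 that was higher (Cfi), with a background of 4.64%. A share of 1 in 26 is near these backgrounds. The count of complement genes under an unadjusted p of 0.05 depended on single libraries. It was 0 of 27 tested without resistant replicate 2, where 1.51% of all genes were. Without sensitive replicate 2 it was 5 of 28 (Cd55, Cd46, C5ar2, C5ar1 and Mbl2), where 3.96% of all genes were. Without resistant replicate 1 it was 5 of 27 (C1ra, C6, Masp1, C3 and Mbl2), where 3.91% of all genes were.

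**Figure D2:**
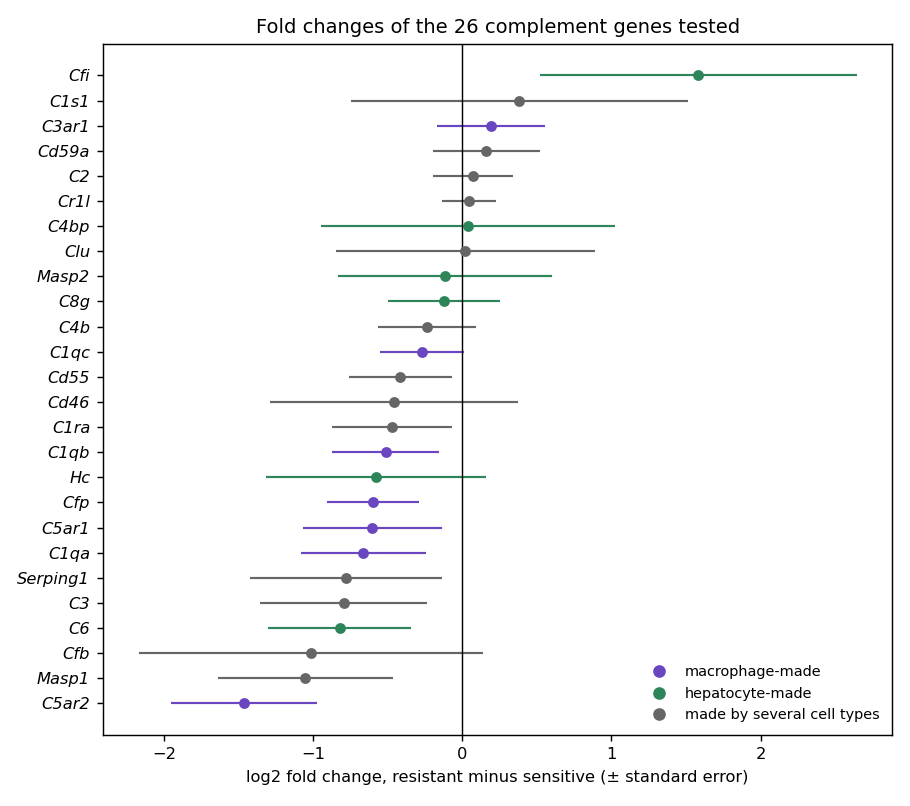
Log2 fold change, resistant minus sensitive, of the 26 complement genes tested, as points with bars for the standard error implied by the test, colored by main source. Of the 26 points 18 lie left of 0, C5ar2 lies lowest at −1.47 and Cfi highest at 1.58, and none passed an adjusted p of 0.05.

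Among the recognition molecules and early proteases, 9 of 11 were tested, 7 of them lower and 2 higher, with none under an unadjusted p of 0.05. C1qa was at 1654, 4946 and 3097 CPM in sensitive libraries 1, 2 and 3 and at 2528, 1970 and 1624 CPM in resistant libraries 1, 2 and 3. The highest value was in sensitive replicate 2, and the lowest sensitive library lay among the resistant ones. The means were 3233 ± 1650 and 2041 ± 456 CPM (SD, n = 3 each), a log2 fold change of −0.66 with a standard error of 0.419 (edgeR unadjusted p = 0.157, adjusted p = 0.940). Without sensitive replicate 2 the log2 fold change was −0.23.

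C1qb was at 1382, 3082 and 2220 CPM in the sensitive libraries and at 2022, 1464 and 1193 CPM in the resistant ones, and C1qc at 1269, 2052 and 2273 CPM and at 1694, 1575 and 1369 CPM. Sensitive replicate 1 was the lowest of its group for all 3 chains, and the groups overlapped for each. The log2 fold changes were −0.51 ± 0.361 for C1qb and −0.27 ± 0.282 for C1qc (SE). The chains did not keep one proportion: the ratio of FPKM of C1qa to C1qc was 4.48 in sensitive replicate 2 and between 2.20 and 2.77 in the other 5 libraries, and that of C1qb to C1qc was 2.67 in sensitive replicate 2 and between 1.55 and 2.12 in the others. Without sensitive replicate 2 the log2 fold changes of C1qb and C1qc were −0.22 and −0.20. That library held the highest level of 5 of the 12 macrophage markers (Clec4f, Timd4, Cd5l, Marco and Fcgr1) and the lowest level of another 5 (Adgre1, Csf1r, Cd68, Mertk and Cd163). The part of these cells in the C1q values was not tested.

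The proteases of C1 were at lower levels. C1ra, which encodes C1r, was at 29.0, 33.7 and 25.99 CPM in the sensitive libraries and at 35.2, 16.7 and 12.1 CPM in the resistant ones, a log2 fold change of −0.47 ± 0.403 (SE). Resistant replicate 1 was the highest of all 6 and the other resistant libraries the lowest. C1s1, which encodes C1s, the partner that C1r cleaves, had 59, 0 and 28 counts in the sensitive libraries and 29, 40 and 42 in the resistant ones, and its log2 fold change of 0.38 became −0.20 without sensitive replicate 2, the library with none. C1rb, a close copy of C1ra, was at 0.214 to 0.772 FPKM, where C1ra was at 4.12 to 12.6 FPKM. Reads shared by the copies make both values uncertain.

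In the lectin pathway, the mannose-binding lectins, which bind microbial sugars, were almost absent. Mbl1 had 2, 0 and 0 counts in the sensitive libraries and 2, 1 and 1 in the resistant ones. Mbl2 had 0 counts in each sensitive library and 3, 23 and 11 in the resistant ones, with resistant replicate 2 the highest. The 37 counts pooled over the resistant group were 11.5-fold above a floor of 3 counts over the whole sensitive group. This ratio takes the pooled counts as exact and is no lower bound for each library, since resistant replicate 1 itself had 3 counts (0.136 CPM). Mbl2 had too few counts for the edgeR test. The exact two-sided permutation test gave p = 0.1, the smallest p that 3 against 3 libraries allow. The summed hepatocyte markers were also highest in resistant replicate 2, at 234.9 CPM against 37.2 to 119.7 CPM in the other 5 libraries, and their part in the Mbl2 counts was not tested.

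Masp1, a protease carried by the lectins, was at 19.0, 9.80 and 23.7 CPM in the sensitive libraries and at 14.4, 3.03 and 7.84 CPM in the resistant ones. Resistant replicates 2 and 3 were the lowest of all, while resistant replicate 1 lay within the sensitive range. Its means were 17.5 ± 7.09 and 8.43 ± 5.71 CPM (SD, n = 3 each), with a log2 fold change of −1.05, a standard error of 0.587 and an edgeR adjusted p of 0.940. Masp2, the other lectin protease, was between 0.44 and 2.34 CPM with a log2 fold change of −0.12 whose direction turned under several settings, and 54.9% of its exonic bases overlap the opposite-strand gene Tardbp, which had between 2466 and 3802 counts.

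C2 and C4b supply the parts of the classical and lectin convertase. C2 was at 26.6, 27.8 and 26.5 CPM in the sensitive libraries and at 36.6, 19.3 and 29.2 CPM in the resistant ones, so the sensitive libraries were close together and the resistant ones lay on both sides of them (log2 fold change 0.07 ± 0.270, SE). C4b was at 227, 338 and 416 CPM in the sensitive libraries and at 375, 259.7 and 196 CPM in the resistant ones (log2 fold change −0.24 ± 0.328, SE). The groups overlapped for both genes. C4a, the near-identical copy of C4b, was at 0.268 to 0.755 FPKM, where C4b was at 34.9 to 72.6 FPKM. On the same strand, 42.8% of the exonic bases of C2 are shared with the read-through gene model Gm20547, which had 0 counts. How reads in shared bases were counted is not given, so the level of C2 is uncertain.

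Of C3 and the alternative pathway, 3 of 4 genes were tested and all 3 were lower, none under an unadjusted p of 0.05. C3 was at 380, 339 and 246 CPM in the sensitive libraries and at 355, 129 and 71.0 CPM in the resistant ones. Resistant replicates 2 and 3 lay below every sensitive library, and resistant replicate 1 lay among them. The means were 321 ± 68.5 and 185 ± 150.2 CPM (SD, n = 3 each), and the log2 fold change was −0.80 with a standard error of 0.560 (edgeR adjusted p = 0.940). Without resistant replicate 1 the log2 fold change was −1.67, and without resistant replicate 3 it was −0.40.

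Cfp was at 605, 1219 and 789 CPM in the sensitive libraries and at 630.5, 620.1 and 472 CPM in the resistant ones. Sensitive replicate 2 was the highest by far, as it was for C1qa and C1qb. The log2 fold change was −0.60 with a standard error of 0.308 (edgeR unadjusted p = 0.0915, adjusted p = 0.940), and −0.29 without sensitive replicate 2. Neutrophils also make properdin, and the neutrophil markers summed to 4622, 7545 and 506 CPM in the sensitive libraries and to 1835, 1459 and 249 CPM in the resistant ones. Sensitive replicate 2 was the highest for both, while sensitive replicate 1, with the next highest marker sum, had less Cfp than resistant replicates 1 and 2. The part of these cells in the Cfp values was not tested.

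Factor B, the protease of the alternative convertase, and factor D, which cleaves it, had low measured levels. Cfb was at 2.01, 0.195 and 8.32 CPM in the sensitive libraries and at 2.54, 2.21 and 0.461 CPM in the resistant ones, and its log2 fold change of −1.02 rested on sensitive replicate 3, without which it was 0.64. In addition, 79.5% of its exonic bases are shared on the same strand with Gm20547. How reads in shared bases were counted is not given, so the level of Cfb is uncertain and could be too low. Cfd, which adipocytes make in quantity, had 24 counts in sensitive replicate 2 and at most 1 in every other library.

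Among the terminal components, 3 of 7 were tested (C6, C8g and Hc) and all 3 were lower, none under an unadjusted p of 0.05. C6 was at 95.8, 98.4 and 119.8 CPM in the sensitive libraries and at 109, 30.2 and 38.3 CPM in the resistant ones. Resistant replicates 2 and 3 were below every other library and resistant replicate 1 was among the sensitive ones, so the groups overlapped. The means were 105 ± 13.2 and 59.2 ± 43.4 CPM (SD, n = 3 each), with a log2 fold change of −0.82 and a standard error of 0.480 (edgeR unadjusted p = 0.130, adjusted p = 0.940). The log2 fold change was −1.60 without resistant replicate 1 (edgeR adjusted p = 0.889), −0.50 without resistant replicate 2 and −0.58 without resistant replicate 3.

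Of the 12 macrophage and Kupffer cell markers, 2 were likewise lower in resistant replicates 2 and 3 than in all other libraries (Clec4f and Timd4), 2 were higher in both than in all others (Msr1 and Lyz2), and the remaining markers showed neither order. Of the 9 LSEC markers, Stab2, Dnase1l3, Clec4g and Gpr182 were also lower in these 2 libraries than in all others, and Lyve1, Oit3, Bmp2, Gata4 and Flt4 were not. Stab2 was at 104, 94.7 and 129 CPM in the sensitive libraries and at 133, 29.6 and 40.9 CPM in the resistant ones. Of the 10 pan-endothelial markers, Tek, Emcn, Egfl7, Cldn5, Esam, Kdr and Erg were, and Pecam1, Cdh5 and Tie1 were not. The part of any of these cell types in the C6 values was not tested. C8g was at 2.92, 4.35 and 4.45 CPM in the sensitive libraries and at 2.85, 4.26 and 3.64 CPM in the resistant ones, a log2 fold change of −0.12 ± 0.375 (SE), and the groups overlapped almost wholly. Hc, which encodes C5, was between 0.227 and 1.18 CPM, with both extremes in the resistant group.

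The other subunits of the pore were near the limit of counting. C9, which forms the ring of the pore, had 11, 4 and 1 counts in the sensitive libraries and 13, 9 and 3 in the resistant ones. C8b had 4, 0 and 2 counts and 5, 8 and 0 counts, C8a had 2, 0 and 3 and then 1, 5 and 0, and C7 had 4, 0 and 1 and then 1, 1 and 0. At this depth 3 counts correspond to between 0.136 and 0.195 CPM, and differences between the groups were not detectable for these genes.

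**Figure D3:**
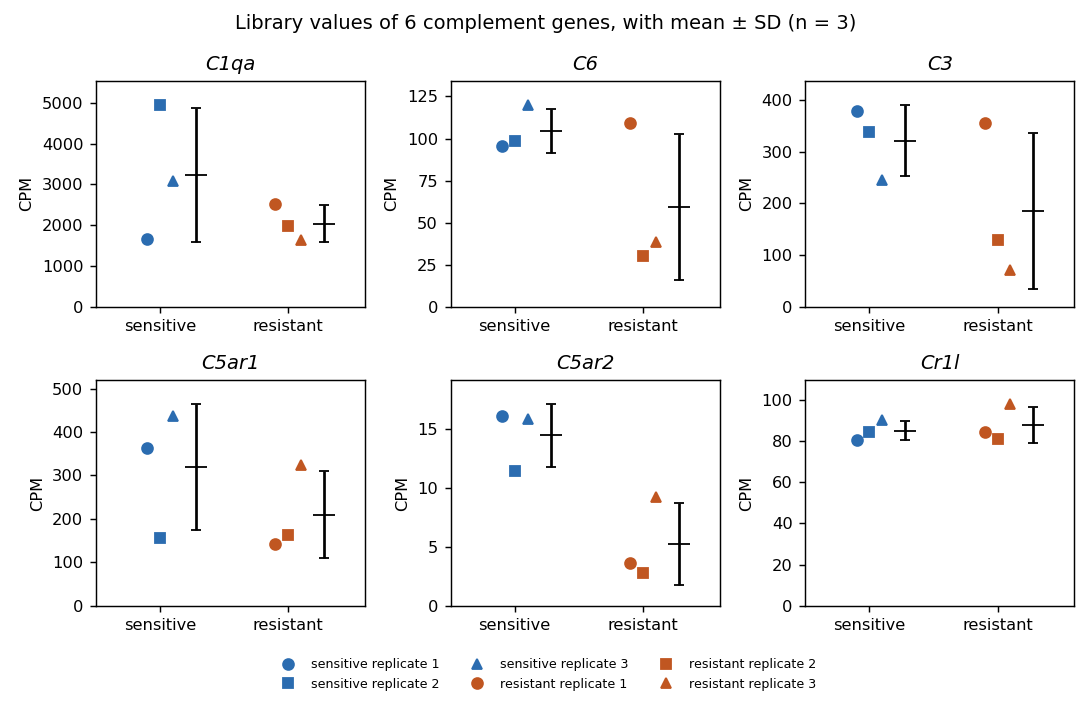
CPM of 6 complement genes chosen after their values were seen, with 1 point per library (circle, square and triangle for replicates 1, 2 and 3, blue for sensitive, orange for resistant) and the mean with SD over n = 3 beside them. For C6 and C3 the resistant replicates 2 and 3 lie below all others while resistant replicate 1 does not, C5ar2 is the gene of the 6 whose groups do not overlap, and Cr1l stays between 80.6 and 97.7 CPM.

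All 8 regulators were tested, with 5 higher, 3 lower and a median log2 fold change of 0.03. Cr1l, which encodes Crry, the rodent membrane protein that controls C3 convertases, was at 80.6, 84.2 and 90.0 CPM in the sensitive libraries and at 84.3, 81.0 and 97.7 CPM in the resistant ones. All 6 values were close together, with means of 84.9 ± 4.75 and 87.7 ± 8.85 CPM (SD, n = 3 each) and a log2 fold change of 0.05 with a standard error of 0.180. Cd55, which speeds the decay of convertases, was at 53.7, 28.6 and 58.3 CPM in the sensitive libraries and at 40.5, 23.6 and 41.4 CPM in the resistant ones, with replicate 2 the lowest of each group (log2 fold change −0.42 ± 0.348, SE).

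Cd59a, which blocks the assembly of the pore on host membranes, was at 4.45, 4.22 and 3.18 CPM in the sensitive libraries and at 3.44, 5.45 and 4.36 CPM in the resistant ones (log2 fold change 0.16 ± 0.360, SE), and the groups overlapped. Cd46, a cofactor for the cleavage of C3b and C4b that in mice is found mainly in testis, was between 0.260 and 3.33 CPM and lowest in sensitive replicate 2. Its log2 fold change was −0.46, and −0.98 without that library, and 14.2% of its exonic bases overlap a transcript of the opposite strand.

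Of the soluble regulators, Serping1, which encodes the C1 inhibitor, was at 25.7, 26.9 and 5.68 CPM in the sensitive libraries and at 16.6, 11.9 and 5.33 CPM in the resistant ones. Replicate 3 was the lowest of each group (log2 fold change −0.78 ± 0.641, SE). Clu, which encodes clusterin, a chaperone that binds terminal complexes, was at 133, 274 and 13.4 CPM in the sensitive libraries and at 88.7, 182 and 155 CPM in the resistant ones. Its lowest and its highest value were both sensitive libraries, its log2 fold change was 0.02 ± 0.868 (SE), and without sensitive replicate 3 it was −0.50. The summed epithelial and mesothelial markers (7 genes) were likewise lowest in sensitive replicate 3 (18.6 CPM) and highest in sensitive replicate 2 (310.4 CPM), and their part in the Clu values was not tested.

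Cfi, the liver-made protease that cuts C3b and C4b, had 18, 0 and 14 counts in the sensitive libraries and 27, 51 and 18 in the resistant ones, or 0.861, 0 and 0.685 CPM against 1.22, 2.62 and 0.923 CPM. In CPM every resistant library was above every sensitive one. The log2 fold change was 1.58 with a standard error of 1.06 (edgeR unadjusted p = 0.179, adjusted p = 0.940), and 1.02 without sensitive replicate 2, which had no count. As with Mbl2, its highest value was in resistant replicate 2, the library with the most hepatocyte marker counts. C4bp, the soluble cofactor that binds C4b, had 10, 27 and 2 counts in the sensitive libraries and 9, 22 and 16 in the resistant ones, with a log2 fold change of 0.04 ± 0.988 (SE).

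C5ar2, the second C5a receptor, which does not couple to G proteins, had the lowest unadjusted p of the 26 complement genes tested. It was at 16.1, 11.4 and 15.9 CPM in the sensitive libraries and at 3.62, 2.83 and 9.28 CPM in the resistant ones, from 336, 176 and 325 counts and from 80, 55 and 181 counts. Every resistant library was below every sensitive one, and resistant replicate 3 was the nearest to them. The means were 14.5 ± 2.64 and 5.24 ± 3.52 CPM (SD, n = 3 each), and the log2 fold change was −1.47 with a standard error of 0.488 (edgeR unadjusted p = 0.0197, adjusted p = 0.940). The exact two-sided permutation test over libraries gave p = 0.1, the smallest possible here. Leaving out single libraries gave log2 fold changes between −2.15 (without resistant replicate 3) and −1.16 (without resistant replicate 2), and the unadjusted p rose to 0.0555 without sensitive replicate 1, to 0.0696 without resistant replicate 1 and to 0.0576 without resistant replicate 2. Over all settings tried the adjusted p of C5ar2 was between 0.441 and 1.000.

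C5ar1, its neighbour and the receptor that drives leukocyte chemotaxis, was at 363, 156 and 436 CPM in the sensitive libraries and at 143, 163 and 324 CPM in the resistant ones. Sensitive replicate 2 lay with resistant replicates 1 and 2, and the groups overlapped (log2 fold change −0.60, SE 0.465, edgeR adjusted p = 0.940). Without sensitive replicate 2 the log2 fold change was −0.94 (edgeR unadjusted p = 0.0481, adjusted p = 0.984). C3ar1 was at 275, 193 and 359 CPM in the sensitive libraries and at 193, 441 and 313 CPM in the resistant ones, with a log2 fold change of 0.19 ± 0.363 (SE), and it too overlapped. Neutrophils carry C5a receptors as macrophages do, and all 8 neutrophil markers were, like C5ar1 and C5ar2, at a lower fitted level in the resistant group, with a median log2 fold change of −1.74. In single libraries the order differed, since the neutrophil markers were lowest of the sensitive group in replicate 3, in which C5ar1 was highest. The part of these cells in the receptor values was not tested.

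Read by source, 6 of the 7 macrophage-made genes were lower in the resistant group, with a median log2 fold change of −0.60. This median was the value of Cfp, which neutrophils also make, and the 7 genes ranged from −1.47 (C5ar2) to 0.19 (C3ar1). Their summed level was 5564, 11660.1 and 9189 CPM in the sensitive libraries and 7213, 6235 and 5305 CPM in the resistant ones. Sensitive replicate 1 lay below resistant replicates 1 and 2, so the groups overlapped, and the ratio of the means was 0.710. Without sensitive replicate 2 the median log2 fold change was −0.23 and the ratio 0.847. The 12 macrophage and Kupffer cell markers summed to 26645 ± 7328 CPM in the sensitive and 22997 ± 2784 CPM in the resistant libraries (SD, n = 3 each). Among them 5 had a lower fitted level (Marco, Clec4f, Cd5l, Timd4 and Fcgr1) and 7 a higher one, with a median log2 fold change of 0.26. The part of these cells in the macrophage-made sum was not tested.

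Of the 11 hepatocyte-made genes 6 were tested, 4 lower and 2 higher, with a median log2 fold change of −0.12 that became 0.16 without sensitive replicate 2 and −0.51 without sensitive replicate 3. The hepatocyte markers had a higher fitted level in the resistant group in 10 of 10 tested, with a median log2 fold change of 1.01 and none under an unadjusted p of 0.05, and the part of these cells in the list was not tested. The genes' summed level was 104, 108 and 126.6 CPM in the sensitive libraries and 117, 42.5 and 46.5 CPM in the resistant ones, a ratio of means of 0.608. Without C6 the sums were 7.75, 9.67 and 6.75 CPM and 7.43, 12.3 and 8.25 CPM, a ratio of 1.16, so the direction of the summed list turned without that gene. The difference between the macrophage-made and the hepatocyte-made genes in fold change was not tested. Of the 15 genes made by several cell types, 13 were tested, 8 lower and 5 higher, with a median log2 fold change of −0.42. Pan-endothelial markers were lower in the resistant group in 10 of 10 tested (median −1.28), and LSEC markers in 7 of 9 (median −0.42). At an unadjusted edgeR p under 0.05, 5 pan-endothelial markers were lower (background 2.54%) and 0 LSEC markers were. In 5 pan-endothelial markers the resistant libraries lay below all sensitive ones (background 4.38%). The part of these cells in the complement values was not tested.

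**Figure D4:**
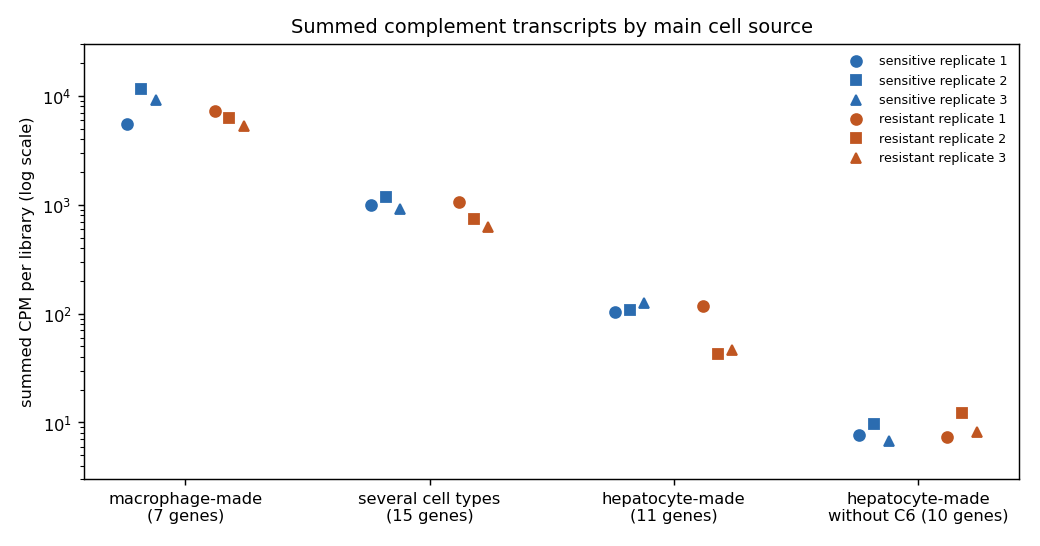
Summed CPM of the macrophage-made genes, the genes made by several cell types, the hepatocyte-made genes and the hepatocyte-made genes without C6, on a log axis, with 1 point per library. The macrophage-made sum lies between 5305 and 11660.1 CPM and the hepatocyte-made sum without C6 between 6.75 and 12.3 CPM, and the groups overlap in each list.

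Among 31 other genes of the pathway, 17 were tested, 8 higher and 9 lower, with a median log2 fold change of −0.10. None was under an unadjusted p of 0.05. Of the 17 tested, 1 had separate groups, C1rb, which was lower (log2 fold change −0.91) and was named after its value was seen. The background was 4.38% of all genes tested, and a share of 1 in 17 is near it. The most abundant by CPM were Vsig4, the complement receptor of Kupffer cells that binds C3b, at 400.2 to 1463 CPM, Calr, which encodes calreticulin, a protein that binds C1q, at 682 to 1302 CPM, and Itgb2, the shared chain of complement receptors 3 and 4, at 421 to 1017 CPM. Fcna, a ficolin of mouse macrophages that starts the lectin pathway, was at 409, 1045 and 864 CPM in the sensitive libraries and at 380, 299.99 and 654 CPM in the resistant ones, with overlapping groups and a log2 fold change of −0.80. Cd93, once described as a C1q receptor, was at 217 to 731 CPM and Itgam, the other chain of complement receptor 3, at 98.4 to 271 CPM. The groups overlapped for all 6 of these genes.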

How the data were processed

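Mouse LSEC libraries, 3 from sensitive and 3 from resistant xenografts, were grouped by their titles. The authors deposited read counts per gene, as whole numbers without normalization, and FPKM values, whose relation to the counts was checked and needs only each library's total and one length per gene. The submitters' processing notes name HISAT2 2.0.5, featureCounts 1.5.0-p3, DESeq2 1.16.1 and edgeR, and the build mm9. The lengths behind the FPKM of the 33 genes equalled the exonic bases of GENCODE M21 (GRCm38), which supplied the coordinates. Whether counting used strand is not given in the sources used here, and the study's methods describe poly(A) capture as well as depletion of ribosomal RNA, so levels of transcripts without poly(A) tails could depend on which was used. A table of the authors' own comparison (group means, fold changes, p-values) was not used.

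The groups were compared with edgeR 4.0.16 under R 4.3.3 (filterByExpr by group, TMM, robust quasi-likelihood test, two-sided, no covariate, Benjamini-Hochberg adjustment over all 15474 genes tested, threshold 0.05). CPM used the TMM-scaled library sizes (factors 0.881 to 1.07), and standard errors are those implied by the F statistic. Totals were between 17599326 and 20726684 counts. Reads carried no molecular identifiers, so floors cover counting error only. Alternatives were other size factors, library totals, no filter on low counts, DESeq2 1.42.0, limma-voom (limma 3.58.1), a replicate block and leaving out each library. No pair of replicates agreed within sampling noise. The genes, their lists by role and source and the marker lists were chosen with earlier results of these data known. All 33 genes are named, with the 6 most abundant of the other pathway genes and at most 3 markers a list (highest CPM). C1rb and the markers beyond these were chosen after their values were seen.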

Additional observations from a re-analysis of the deposited data

How the results depend on the processing

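No complement gene had an adjusted p under 0.05 under any setting, and the smallest was 0.441 (C5ar2, DESeq2). Of 312 member fold changes under the alternatives, 292 kept their direction and 20 reversed, and the causes were not tested. Genes called at the adjusted threshold numbered 2 without the filter and 24 with DESeq2, against 0. At an unadjusted p under 0.05 the genes numbered 2036 and 732 with those settings against 476, and between 167 and 1056 with single libraries left out, while members numbered 2 without the filter (C5ar2 and Mbl2) and between 0 and 5 with single libraries left out. The ratio of the summed hepatocyte-made genes was 1.16 without C6 and between 0.395 and 0.723 with single libraries left out.

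The replicate numbers were not used as pairs in the main fit. Deviations of same-numbered libraries correlated at 0.0050, 0.051 and 0.240 over genes, and 3 of 6 libraries correlated best with their own number. With 3 libraries a group, these values cannot show whether same-numbered libraries shared a batch. With the replicate block 467 genes and 3 members (C5ar2, Masp1 and C3) were under an unadjusted p of 0.05, and the log2 fold changes of Masp2 and Cd46 turned to 0.05 and 0.0041. Masp2 was 0.15 with limma-voom.

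With single libraries left out, log2 fold changes ranged from −0.48 to 1.41 for C4bp, −0.50 to 0.95 for Clu, −0.20 to 1.39 for C1s1, −0.54 to 0.37 for Masp2, −0.12 to 0.46 for C3ar1, −1.57 to 0.64 for Cfb, −0.15 to 0.30 for C2, −0.29 to 0.026 for C8g, −0.0066 to 0.32 for Cd59a and −0.029 to 0.11 for Cr1l. Depth limits the 7 untested genes, which had at most 24 counts in any library.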
